A study of Homo sapiens with 4 samples.

Results

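The 37 genes described here encode proteins of homologous recombination, the Fanconi anemia pathway and mismatch repair, together with the checkpoint kinases that signal to them. They were chosen by symbol, from a list of pathway members, and a gene counted as measured when its mean over the 4 libraries was at least 10 counts. All 37 were measured, of 35993 genes in the table, of which 16599 passed the same minimum. Homologous recombination repairs double-strand breaks and broken replication forks by copying the sister chromatid, and therefore works mainly in S and G2 phase. The Fanconi pathway unhooks crosslinks between the DNA strands by placing ubiquitin on FANCD2 and FANCI, after which recombination completes the repair. Mismatch repair removes replication errors, and ATR, ATM and their effector kinases hold the cell cycle while the damage is repaired.

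The RNA-Seq was made from MDA-MB-231, a human breast cancer cell line of the triple-negative type. The 4 libraries were siCTGF cells treated with kahweol, siCNT cells treated with kahweol, untreated siCTGF cells and untreated siCNT cells, where siCTGF is 1 siRNA against the connective tissue growth factor mRNA and siCNT is a negative control siRNA. Kahweol is a coffee diterpene, given at 50 µM for 48 h to cells that had been kept in serum-free medium. The 48 h is also in a figure legend of the study, whereas its text gives a shorter treatment before its mRNA measurements. The study asked what CTGF and kahweol do in triple-negative breast cancer cells, and each condition was 1 library, so variation between cultures was not measured. Kahweol was dissolved in DMSO and the labels name no vehicle for the untreated cells, so an effect of kahweol and one of DMSO cannot be told apart.

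The libraries held 44781516 to 59129784 counts, and the 37 genes had 202 to 15321 counts each per library, so a 95% counting interval of a log2 fold change extended a median of 0.12 to each side. These intervals cover counting error only. CCN2, the gene of CTGF, was at 31.8 CPM (counts scaled to library size) in siCTGF and 186 CPM in siCNT cells under kahweol, and at 63.6 CPM in siCTGF and 159 CPM in siCNT cells without it. The epithelial label was met by KRT8 and KRT18 (145 to 253 FPKM) and EPCAM (12.3 to 19.0 FPKM), but CDH1 was at only 1.21 to 2.15 FPKM beside 1086 to 1414 FPKM of VIM, the mesenchymal intermediate filament, while the mesenchymal cadherin CDH2 was at or below 0.0889 FPKM. ESR1 and PGR were at or below 0.0446 FPKM, and ERBB2, the gene of HER2, was at 10.5 to 15.8 FPKM. Of the fibroblast markers, DCN, LUM and COL1A2 were at or below 0.0188 FPKM, COL1A1 was at 0.543 to 0.806 FPKM and PDGFRB at 1.53 to 2.18 FPKM. Of the leukocyte markers, PTPRC was at or below 0.0238 FPKM and CD3E at or below 0.0811 FPKM, while CD68, which is not limited to leukocytes, was at 21.9 to 31.3 FPKM.

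In kahweol-treated cells, 19 of the 37 repair genes (51.4%) fell and 4 (10.8%) rose in the additive fit over all 4 libraries (edgeR's quasi-likelihood test, Benjamini-Hochberg adjusted p under 0.05, siRNA as covariate). Over all 16599 genes tested, 23.6% were called lower and 22.9% higher. With scaling to the total count in place of TMM, 26 of the 37 were called lower and 2 higher, and of all genes 5159 lower and 2879 higher, against 3922 lower and 3805 higher with TMM. The genes that fell furthest were FANCL, the ubiquitin ligase of the Fanconi core complex, XRCC2 and RAD51D, which stabilize recombinase filaments, and BRIP1, a helicase that binds BRCA1. The 4 genes that rose were FANCM, WRN, FANCB and RAD50. The fit had 1 residual degree of freedom and took any dependence of the kahweol effect on the siRNA as noise. Each SE given below with an average was worked back from the F statistic of this test. It does not measure the spread between cultures.

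Promoter sequences of these genes are shown because many genes of DNA replication and recombination are known targets of E2F factors, and because the S phase genes described further on fell with them. The windows run from 250 bases before an annotated start of the gene, the first listed, to 50 bases after it (RefSeq, GRCh38.p14, 5′ to 3′ on the strand of the gene), and the windows of 33 of the 37 genes were used. Capitals mark the E2F letters TTTCCCGC, TTTCGCGC, TTTGGCGC or TTTGCCGC, or the cell cycle homology region (CHR) letters TTTGAA or TTCGAA, on either strand. The first 3 windows belong to the genes with the lowest fold changes, and the fourth to FANCM, which rose most.
FANCL, chr2:58241276-58241575, minus strand: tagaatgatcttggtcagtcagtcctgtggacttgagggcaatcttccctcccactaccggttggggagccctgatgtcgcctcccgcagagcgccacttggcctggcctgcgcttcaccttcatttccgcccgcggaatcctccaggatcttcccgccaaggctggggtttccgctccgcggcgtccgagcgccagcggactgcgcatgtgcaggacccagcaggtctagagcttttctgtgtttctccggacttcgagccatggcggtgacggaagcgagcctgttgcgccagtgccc
XRCC2, chr7:152676092-152676391, minus strand: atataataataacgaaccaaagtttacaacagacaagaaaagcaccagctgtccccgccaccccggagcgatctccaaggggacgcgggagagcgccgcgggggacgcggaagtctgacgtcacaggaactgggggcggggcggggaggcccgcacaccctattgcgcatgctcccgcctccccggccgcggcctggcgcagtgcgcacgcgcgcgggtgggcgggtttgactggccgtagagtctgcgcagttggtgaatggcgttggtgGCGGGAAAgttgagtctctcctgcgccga
BRIP1, chr17:61863479-61863778, minus strand: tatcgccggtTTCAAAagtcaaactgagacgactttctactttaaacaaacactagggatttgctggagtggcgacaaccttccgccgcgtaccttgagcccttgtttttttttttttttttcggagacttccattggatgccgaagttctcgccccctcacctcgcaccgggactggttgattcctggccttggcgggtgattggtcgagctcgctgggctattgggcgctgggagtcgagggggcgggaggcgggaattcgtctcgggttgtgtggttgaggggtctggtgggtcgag
FANCM, chr14:45135680-45135979, plus strand: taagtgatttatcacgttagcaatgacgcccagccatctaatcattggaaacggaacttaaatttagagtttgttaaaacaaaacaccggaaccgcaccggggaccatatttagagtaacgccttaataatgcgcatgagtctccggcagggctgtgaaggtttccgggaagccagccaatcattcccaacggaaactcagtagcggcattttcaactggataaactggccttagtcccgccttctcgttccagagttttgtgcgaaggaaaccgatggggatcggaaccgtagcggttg
The XRCC2 window held 1 E2F match, 21 bases after the start, and the BRIP1 window 1 CHR match, 240 bases before it, while the windows of FANCL and FANCM held neither set of letters. E2F letters stood in 8 of 33 windows (24.2%), against 5.18% of the windows of 12286 genes tested and 3.33% of all 27305 windows. CHR letters stood in 3 of 33 windows (9.09%), against 11.5% of the genes tested and 16.6% of all windows. In an alternative added after seeing the data, every listed window was searched (12 of the 33 genes had several): E2F letters again stood in 8 of the 33 genes, against 6.35% of the genes tested.

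The E2F letters were not limited to the genes that fell: they stood in 4 of 18 windows of genes called lower, 0 of 3 of genes called higher and 4 of 12 of genes not called. Stretches of 30 bases around the match, with the match in capitals, are shown for the 3 other genes that fell and then for the 4 that were not called.
MSH6, chr2:47783137-47783166, plus strand: ctccccccagaTTTCCCGCcagcaggagcc
FANCD2, chr3:10026424-10026453, plus strand: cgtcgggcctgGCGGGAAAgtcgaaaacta
FANCA, chr16:89816801-89816830, minus strand: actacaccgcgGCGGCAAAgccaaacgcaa
EXO1, chr1:241848197-241848226, plus strand: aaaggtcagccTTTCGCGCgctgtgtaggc
TOPBP1, chr3:133661930-133661959, minus strand: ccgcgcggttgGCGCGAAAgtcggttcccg
PMS2, chr7:6009131-6009160, minus strand: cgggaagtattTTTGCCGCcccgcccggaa
FANCC, chr9:95317863-95317892, minus strand: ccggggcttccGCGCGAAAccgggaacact
MSH6, FANCD2 and XRCC2 shared TTTCCCGC or its reverse complement, and all 3 fell. TTTCGCGC stood in EXO1, TOPBP1 and FANCC, none of which was called by edgeR with TMM. With scaling to the total count, EXO1, TOPBP1 and FANCC were called lower too (edgeR adjusted p = 0.0077, 0.0062 and 0.049). The split by letters therefore depended on the setting. FANCC also held TTTCCCGC, 46 bases before its start. A match is a description of the sequence, not a site shown to be bound.

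The effect of kahweol was then read gene by gene, as CPM in each library, which is the TMM-scaled count relative to the library size, and as the log2 fold change of treated over untreated cells within each siRNA, with genes counted over a fold of 1.3 or under 0.7, the fold thresholds of the study. In siCTGF cells, 17 genes (45.9%) were under 0.7 and 3 over 1.3, where 24.2% and 28.4% of all genes tested were. In siCNT cells, 11 genes (29.7%) were under 0.7 and 4 over 1.3, where 26.3% and 28.1% of all genes were. The share under 0.7 in siCNT cells was thus close to that of all genes. The 11 genes under 0.7 in siCNT cells were RAD51D, XRCC2, XRCC3, FANCE, FANCF, FANCL, FANCD2, FANCI, BRIP1, MRE11 and MSH6, and all 11 were also under it in siCTGF cells (under 0.7 in both for 18.2% of all genes). FANCB, FANCM and WRN were over 1.3 in both, 3 genes where 20.7% of all genes were. The median log2 fold change of the 37 was -0.47 in siCTGF and -0.27 in siCNT cells, beside -0.00 and -0.02 over all genes. Both treated libraries lay below both untreated libraries for 26 genes (70.3%, against 37.1% of all genes) and above them for 6 (16.2%, against 36% of all genes), and the libraries overlapped for RAD51C, RAD52, RAD54B, FANCC and BLM.

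**Figure D1:**
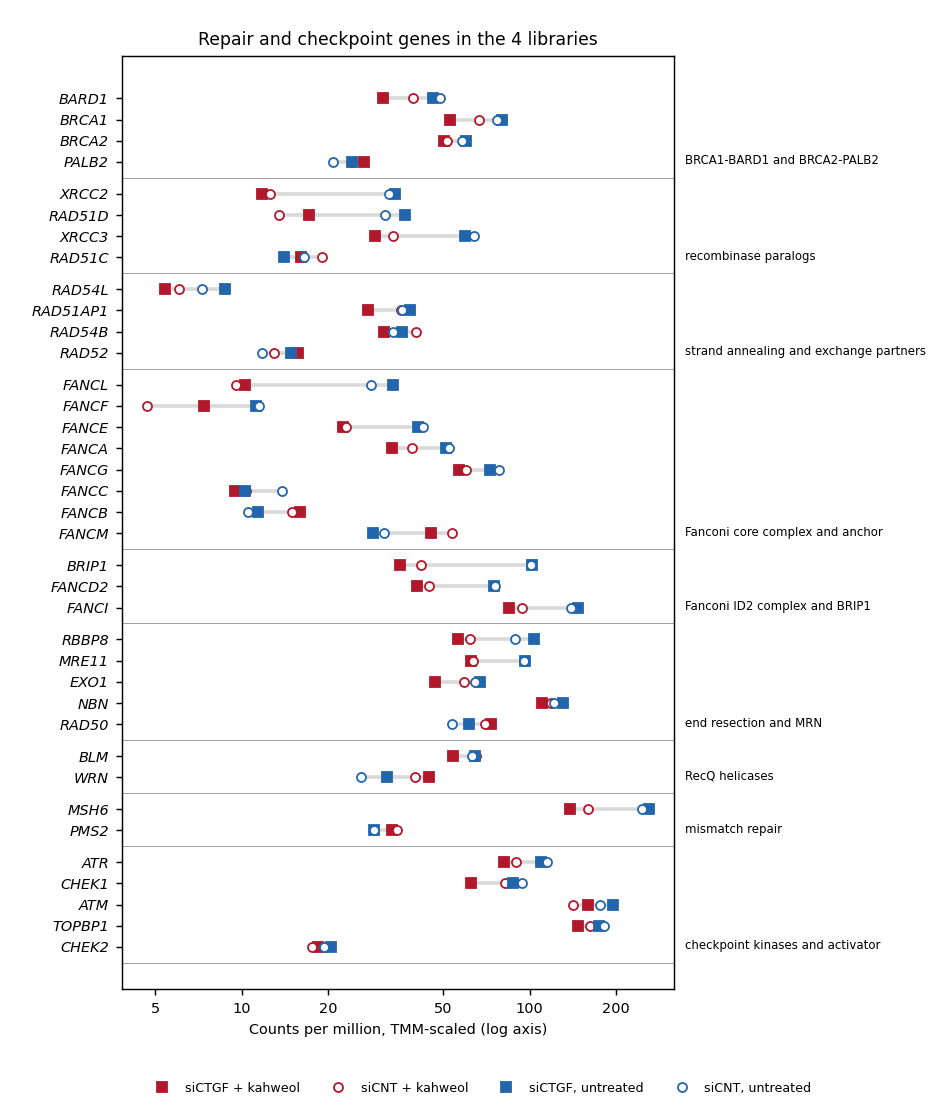
TMM-scaled CPM (log axis) of the 37 genes in the 4 libraries, grouped by role and ordered within each group by the average kahweol effect; each symbol is 1 library and the grey bar spans the 4. The red treated libraries lie left of the blue untreated ones for 26 genes, with the widest gaps at FANCL, XRCC2 and BRIP1, and right of them for 6, among them FANCM and WRN.

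BRCA1 and BARD1 form a ubiquitin ligase that favors resection and recombination at a break, and both fell with kahweol. BRCA1 was at 52.9 and 67.0 CPM in treated siCTGF and siCNT cells, against 80.0 and 76.9 CPM in untreated siCTGF and siCNT cells, with log2 fold changes of -0.60 in siCTGF and -0.20 in siCNT cells and an average of -0.40 (SE 0.12, edgeR adjusted p = 0.027). BARD1 was at 30.9 and 39.2 CPM in treated siCTGF and siCNT cells, against 46.1 and 48.8 CPM in untreated ones, an average of -0.45 (SE 0.10, edgeR adjusted p = 0.0078). For both genes the 2 treated libraries lay below the 2 untreated ones, and the treated siCTGF library was the lowest. BRCA2, which loads the recombinase on single-stranded DNA, and PALB2, which bridges it to BRCA1, did not pass the test, with averages of -0.21 (edgeR adjusted p = 0.095) and 0.18 (edgeR adjusted p = 0.19).

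Of the 4 recombinase paralogs, which form small complexes that stabilize the filament on single-stranded DNA, 3 fell and RAD51C did not. XRCC2 (chr7:152341861-152373226, minus strand, GRCh37.p13) was at 11.8 and 12.5 CPM in treated siCTGF and siCNT cells, against 34.0 and 32.4 CPM in untreated ones. Its average log2 fold change was -1.45 (SE 0.11, edgeR adjusted p = 8.37e-05), with -1.53 in siCTGF cells (95% counting interval -1.73 to -1.33) and -1.37 in siCNT cells (-1.57 to -1.18). Both treated libraries lay below both untreated ones, and treated siCTGF and siCNT cells were close to each other. RAD51D (chr17:33419240-33446888, minus strand), the direct partner of XRCC2, was at 17.1 and 13.5 CPM in treated siCTGF and siCNT cells, against 37.0 and 31.4 CPM in untreated ones, an average of -1.17 (SE 0.10, edgeR adjusted p = 0.00014). It overlaps a readthrough transcript on its own strand, RAD51L3-RFFL, and the summed CPM of the pair gave log2 fold changes of -0.85 in siCTGF and -1.12 in siCNT cells, beside -1.11 and -1.22 for RAD51D alone. XRCC3 (chr14:104163954-104181788, minus strand), the partner of RAD51C, was at 29.0 and 33.6 CPM in treated siCTGF and siCNT cells, against 59.4 and 64.0 CPM in untreated ones, an average of -0.98 (SE 0.09, edgeR adjusted p = 0.00016). KLC1, which overlaps XRCC3 on the other strand, stood at 0.09 in siCTGF and -0.03 in siCNT cells. RAD51C was at 16.1 and 19.0 CPM in treated and 14.1 and 16.5 CPM in untreated siCTGF and siCNT cells, an average of 0.20 (edgeR adjusted p = 0.2).

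None of the 4 strand annealing and exchange genes passed the test, where 23.6% of all genes were called lower and 22.9% higher. RAD51AP1, which stimulates strand exchange, was at 27.5 and 35.8 CPM in treated siCTGF and siCNT cells, against 38.3 and 36.1 CPM in untreated ones, so that only the treated siCTGF library stood apart. RAD52, the annealing factor, averaged 0.11 and RAD54L, a translocase of strand exchange, -0.48 (edgeR adjusted p = 0.51 and 0.087). The log2 fold change of RAD54L was -0.69 in siCTGF cells, under a fold of 0.7, and -0.27 in siCNT cells. LRRC41 overlaps RAD54L on the other strand and held 2497 counts on average, beside 357 for RAD54L. It stood at 0.18 in siCTGF and 0.07 in siCNT cells, and its part in the RAD54L counts was not tested. With scaling to the total count, RAD54L and RAD51AP1 were called lower (edgeR adjusted p = 0.025 and 0.023). RAD54B, a relative of RAD54L, was at 31.3 and 40.2 CPM in treated siCTGF and siCNT cells, against 36.0 and 33.6 CPM in untreated ones, with a log2 fold change of -0.20 in siCTGF cells and 0.26 in siCNT cells. FSBP overlaps RAD54B on the same strand and had 65, 1, 559 and 481 counts in treated siCTGF, treated siCNT, untreated siCTGF and untreated siCNT cells. With both genes summed, the log2 fold change was -0.50 in siCTGF and -0.04 in siCNT cells, and the opposite signs seen for RAD54B alone were no longer there.

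The Fanconi core complex held both the lowest and the highest fold changes, with 5 of 8 genes called lower (62.5%) and 2 higher (25%). Of all genes, 23.6% were called lower and 22.9% higher, so the share called higher was close to that of all genes. FANCL (chr2:58386378-58468515, minus strand, GRCh37.p13), the ligase subunit, was at 10.2 and 9.52 CPM in treated siCTGF and siCNT cells, against 33.5 and 28.2 CPM in untreated ones. Its log2 fold change was -1.71 in siCTGF cells (95% counting interval -1.93 to -1.50) and -1.56 in siCNT cells (-1.79 to -1.35), an average of -1.64 (SE 0.11, edgeR adjusted p = 6.46e-05). The treated and untreated libraries were far apart, while VRK2, which overlaps FANCL on the other strand, stood at 0.15 in siCTGF and 0.07 in siCNT cells. FANCE, the subunit that contacts FANCD2, was at 22.5 and 23.1 CPM in treated siCTGF and siCNT cells, against 41.1 and 42.6 CPM in untreated ones, an average of -0.88 (SE 0.09, edgeR adjusted p = 0.00028). FANCF, an adaptor of the complex and one of the least abundant of the 37, was at 7.36 and 4.68 CPM in treated siCTGF and siCNT cells, against 11.2 and 11.4 CPM in untreated ones, an average of -0.94 (SE 0.21, edgeR adjusted p = 0.0075). FANCA and FANCG, which bind each other, fell less, with averages of -0.53 (SE 0.09, edgeR adjusted p = 0.0026) and -0.37 (SE 0.09, edgeR adjusted p = 0.015). FANCA was at 33.3 and 38.9 CPM in treated siCTGF and siCNT cells, against 51.3 and 52.7 CPM in untreated ones, and FANCG was at 57.0 and 60.1 CPM in treated and 72.8 and 78.3 CPM in untreated siCTGF and siCNT cells. ZNF276, which overlaps FANCA on the other strand, stood at -0.55 in siCTGF and -0.85 in siCNT cells, the same direction as FANCA, and its part in the FANCA counts was not tested. FANCC, a partner of FANCE and FANCF, was at 9.50 and 10.3 CPM in treated and 10.3 and 13.7 CPM in untreated siCTGF and siCNT cells and was not called (average -0.27, edgeR adjusted p = 0.19).

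FANCM (chr14:45605133-45670093, plus strand), the DNA translocase that anchors the core complex to chromatin, rose: it was at 45.5 and 53.7 CPM in treated siCTGF and siCNT cells, against 28.6 and 31.2 CPM in untreated ones. The log2 fold changes were 0.67 in siCTGF and 0.78 in siCNT cells, and the average 0.73 (SE 0.09, edgeR adjusted p = 0.00055). FANCB, which joins FANCL in the catalytic part of the complex, was at 16.0 and 14.9 CPM in treated siCTGF and siCNT cells, against 11.4 and 10.5 CPM in untreated ones, an average of 0.50 (SE 0.13, edgeR adjusted p = 0.017). FANCB and FANCL therefore changed in opposite directions in both siRNAs. The FANCB call was lost with DESeq2 (adjusted p = 0.064) and with scaling to the total count (edgeR adjusted p = 0.054), and its log2 fold change in siCNT cells was 0.06 as log2(TPM + 1), beside 0.50 from counts.

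Downstream of the core complex, FANCD2, FANCI and BRIP1 all fell and were under 0.7 in both siRNAs. Of all genes, 23.6% were called lower and 18.2% were under 0.7 in both. BRIP1 (chr17:59756500-59940889, minus strand, GRCh37.p13) was at 35.5 and 42.1 CPM in treated siCTGF and siCNT cells, against 102 and 101 CPM in untreated ones, an average log2 fold change of -1.39 (SE 0.11, edgeR adjusted p = 8.84e-05). FANCD2 was at 40.7 and 44.9 CPM in treated siCTGF and siCNT cells, against 75.0 and 76.0 CPM in untreated ones, an average of -0.82 (SE 0.10, edgeR adjusted p = 0.00044). FANCI, its partner, was at 84.6 and 94.3 CPM in treated siCTGF and siCNT cells, against 147 and 139 CPM in untreated ones, an average of -0.68 (SE 0.09, edgeR adjusted p = 0.0009). POLG, on the other strand of FANCI, stood at 0.48 in siCTGF and 0.07 in siCNT cells. For each of the 3 genes the untreated siCTGF and siCNT libraries differed by 0.08 or less on the log2 scale, and treated siCTGF cells had the lowest level.

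**Figure D2:**
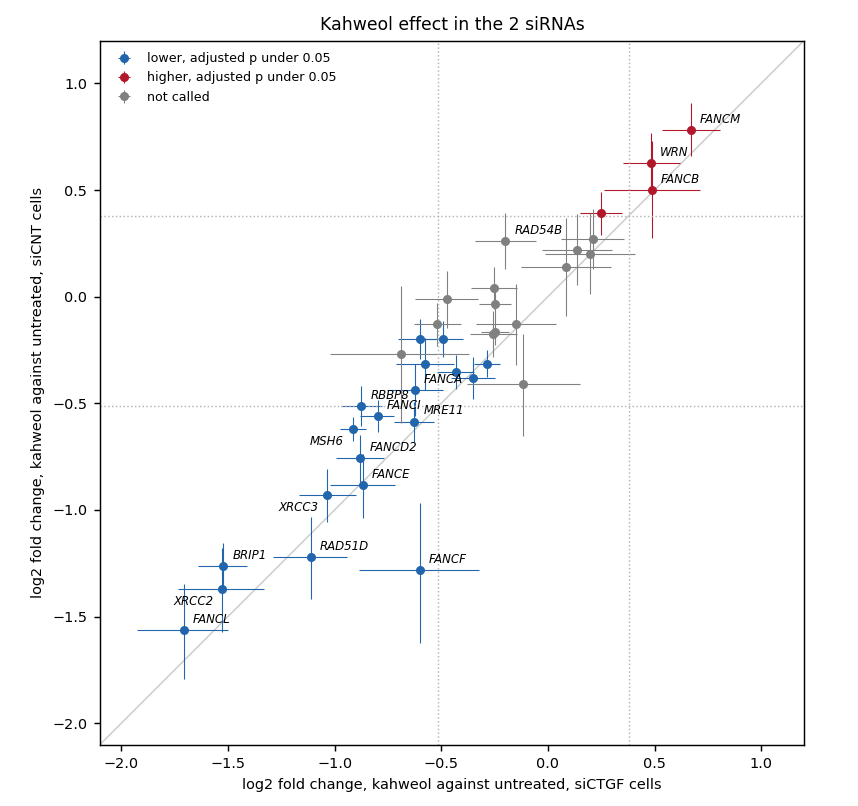
Log2 fold change of kahweol-treated over untreated cells in siCTGF cells (x axis) and in siCNT cells (y axis) for the 37 genes, with 95% counting intervals, the line of equal change and dotted lines at folds of 0.7 and 1.3; colors give the call of the additive fit. FANCL, XRCC2 and BRIP1 sit at the lower left, FANCM at the upper right, and most points lie above the line, with FANCF far below it.

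The genes that open and resect a broken end moved in both directions. MRE11, the nuclease of the MRN complex, was at 62.6 and 63.7 CPM in treated siCTGF and siCNT cells, against 96.6 and 95.7 CPM in untreated ones, an average of -0.61 (SE 0.09, edgeR adjusted p = 0.0013). RAD50, its ATPase partner, was at 73.5 and 70.3 CPM in treated siCTGF and siCNT cells, against 61.8 and 53.6 CPM in untreated ones, an average of 0.32 (SE 0.10, edgeR adjusted p = 0.029). NBN, the third subunit, which recruits ATM, was at 110.1 and 118 CPM in treated and 131 and 121 CPM in untreated siCTGF and siCNT cells and was not called (average -0.14, edgeR adjusted p = 0.24). With scaling to the total count NBN was called lower (average -0.28, edgeR adjusted p = 0.033). The rise of RAD50 was lost with scaling to the total count (edgeR adjusted p = 0.19) and with no covariate (edgeR adjusted p = 0.054). RBBP8 (CtIP), which starts resection together with MRN, was at 56.6 and 62.2 CPM in treated siCTGF and siCNT cells, against 104 and 88.8 CPM in untreated ones, an average of -0.69 (SE 0.11, edgeR adjusted p = 0.0019). EXO1, the exonuclease of long resection, was at 46.9 and 59.1 CPM in treated and 67.2 and 64.6 CPM in untreated siCTGF and siCNT cells and just missed the threshold (average -0.32, edgeR adjusted p = 0.055). It was past the threshold with limma-voom (adjusted p = 0.037) and with a minimum mean count of 100 (edgeR adjusted p = 0.026).

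The RecQ helicases differed. WRN was at 44.6 and 40.0 CPM in treated siCTGF and siCNT cells, against 31.9 and 25.9 CPM in untreated ones, and rose by an average of 0.56 (SE 0.09, edgeR adjusted p = 0.0022). Its log2 fold change of 0.48 in siCTGF cells was 0.33 with scaling to the total count, 0.20 as log2(TPM + 1) and 0.25 as log2(FPKM + 1), and that of 0.63 in siCNT cells was 0.35 as log2(TPM + 1), all 4 under a fold of 1.3. BLM, which dissolves double Holliday junctions, was at 54.2 and 65.1 CPM in treated and 64.6 and 63.2 CPM in untreated siCTGF and siCNT cells, an average of -0.11 (edgeR adjusted p = 0.46), and the treated siCNT library lay above both untreated ones.

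MSH6, which recognizes base mismatches, had the highest level per length of the 37 in every library, at 28.1 and 33.9 FPKM in treated siCTGF and siCNT cells, against 59.8 and 56.3 FPKM in untreated ones. It was at 138 and 159 CPM in treated and 259.6 and 245 CPM in untreated siCTGF and siCNT cells, an average log2 fold change of -0.77 (SE 0.09, edgeR adjusted p = 0.00044). The groups did not overlap, and FBXO11, which overlaps MSH6 on the other strand, stood at 0.94 in siCTGF and 1.01 in siCNT cells, the opposite direction. PMS2, the endonuclease subunit that acts after recognition, was at 33.3 and 34.6 CPM in treated siCTGF and siCNT cells, against 28.8 and 28.7 CPM in untreated ones, an average of 0.24 (edgeR adjusted p = 0.069). Its value is uncertain, since 9 pseudogenes named after PMS2 held 1706 counts on average, beside 1581 for PMS2 itself.

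Among the checkpoint genes, ATM, ATR and CHEK1 fell (60%, against 23.6% of all genes), by 0.30 to 0.39 on the log2 scale. ATR, the kinase activated by single-stranded DNA, was at 81.3 and 90.0 CPM in treated siCTGF and siCNT cells, against 109.7 and 115 CPM in untreated ones, an average of -0.39 (SE 0.09, edgeR adjusted p = 0.0084). CHEK1, its effector, was at 62.4 and 82.0 CPM in treated siCTGF and siCNT cells, against 87.7 and 94.2 CPM in untreated ones, an average of -0.35 (SE 0.11, edgeR adjusted p = 0.029). ATM, the kinase activated by double-strand breaks, was at 159 and 142 CPM in treated siCTGF and siCNT cells, against 194 and 176 CPM in untreated ones, an average of -0.30 (SE 0.08, edgeR adjusted p = 0.014). CHEK2, the effector of ATM, and TOPBP1, the activator of ATR, did not pass the test (averages -0.14 and -0.21, edgeR adjusted p = 0.33 and 0.061). The fall of CHEK1 was lost with no covariate (edgeR adjusted p = 0.094), and TOPBP1 was past the threshold with limma-voom (adjusted p = 0.048). No checkpoint gene was past either fold threshold in either siRNA. Of all genes, 24.2% in siCTGF and 26.3% in siCNT cells were under 0.7, and 28.4% and 28.1% over 1.3.

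Of 54 further recombination, Fanconi and checkpoint genes, 23 (42.6%) were called lower and 13 (24.1%) higher (edgeR's quasi-likelihood test, adjusted p under 0.05), beside 23.6% and 22.9% of all genes, so the share called higher was close to that of all genes. They had medians of -0.29 in siCTGF and -0.20 in siCNT cells. FAAP100, which joins FANCB and FANCL, was at 13.6 and 12.3 CPM in treated siCTGF and siCNT cells, against 38.6 and 40.7 CPM in untreated ones. RMI2, a partner of BLM, SFR1, a recombination accessory factor, and ETAA1, an activator of ATR, also fell, with averages of -1.73, -1.15 and -1.10. UIMC1 and RNF168, which act on ubiquitin at breaks, rose by 0.74 and 0.55, as did HELQ, a helicase, and HUS1, a subunit of the checkpoint clamp, by 0.62 and 0.63. In the other repair pathways, 12 of 20 base excision repair genes were called lower and 4 higher, with UNG, the uracil glycosylase, at an average of -1.60 and TDG, the thymine glycosylase, at 0.90. Of 12 nucleotide excision repair genes 5 were called lower and 2 higher, with ERCC2 at -1.60 and RAD23B at 0.51. Of 10 end joining genes 5 were called lower and 3 higher, with PRKDC at -0.76 and NHEJ1 at 0.72. The median of base excision repair, -0.61 in siCTGF and -0.64 in siCNT cells, was lower than that of the 37 genes.

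S phase genes fell beside the repair genes. Of 22 S phase and replication markers, 20 were called lower and 1, GINS3, higher, with medians of -1.26 in siCTGF and -1.03 in siCNT cells. E2F1, the transcription factor of S phase entry, was at 19.3 and 16.4 CPM in treated siCTGF and siCNT cells, against 87.6 and 80.9 CPM in untreated ones, and MCM5, a subunit of the replicative helicase, averaged -1.41. Their summed level was 515 and 612 FPKM in treated siCTGF and siCNT cells, against 1257 and 1222 FPKM in untreated ones, with no marker at 0. Of 12 mitotic markers 3 (CDK1, TOP2A and AURKB) were called lower and 1, AURKA, higher, shares of 25% and 8.33% beside 23.6% and 22.9% of all genes, with medians of -0.29 in siCTGF and -0.07 in siCNT cells and a summed level of 682 and 768 FPKM in treated siCTGF and siCNT cells, against 936 and 923 FPKM in untreated ones. In bulk RNA, fewer cells in S phase and less of each mRNA per cell cannot be told apart, and the part of the cell cycle in the fall of the repair genes was not tested.

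**Figure D3:**
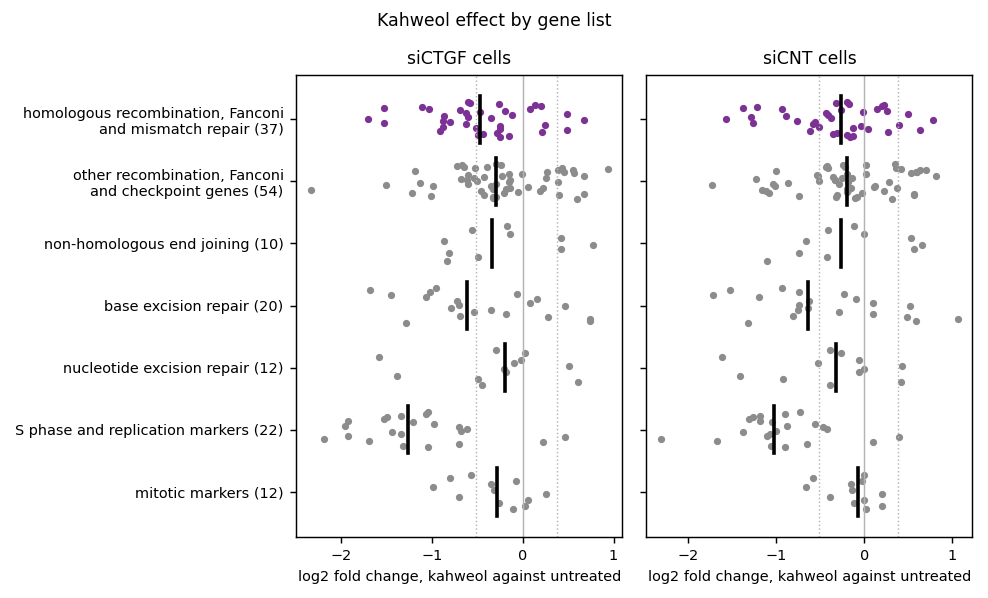
Log2 fold change of kahweol-treated over untreated cells in siCTGF cells (left) and siCNT cells (right) for the 37 genes (purple) and 6 other gene lists (grey), 1 point per gene, with the median as a black bar and dotted lines at folds of 0.7 and 1.3. The S phase markers lie lowest, with medians of -1.26 and -1.03, and the 37 genes spread from FANCL at the left to FANCM at the right.

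The kahweol effects in siCTGF and siCNT cells come from separate libraries. Across the 37 genes they had a Spearman rho of 0.910, beside 0.760 across all 16599 genes, as a description of genes that share a scaling and are not independent. The length of the gene on the genome had a rho of 0.18 and 0.15 with the effect in siCTGF and siCNT cells, beside -0.02 and 0.03 across all genes. The fold change was lower in siCTGF than in siCNT cells for 31 of the 37 (83.8%), beside 49.3% of all genes, with a median difference of -0.12 against 0.00. This was not particular to the 37: the share was 81.8% of the S phase markers and 83.3% of the mitotic markers. Their median differences were -0.17 and -0.18. The share was 80% of the end joining, 61.1% of the further recombination, 55% of the base excision and 25% of the nucleotide excision repair genes. The counting interval of the difference lay below 0 for 13 genes (35.1%, against 17.5% of all genes), above 0 for 1 (2.70%, against 16.2% of all genes) and held 0 for 23. The 13 were BRCA1, BARD1, RAD54B, RAD51AP1, FANCA, FANCI, BRIP1, NBN, RBBP8, EXO1, BLM, MSH6 and CHEK1, with differences of -0.19 to -0.46. FANCF was the exception at 0.68 (0.26 to 1.10). With 1 library per condition this difference has no replicate check.

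The last comparison asked what siCTGF itself did to the 37 genes. None was called in the additive fit (edgeR's quasi-likelihood test, Benjamini-Hochberg adjusted p of 0.41 or more), where 0.0663% of all genes were called higher and 0.0602% lower. At an unadjusted edgeR p under 0.05 there were 4 of the 37, a share close to the 1646 of all 16599 genes. These 4 were RAD51D, RAD52 and WRN (averages 0.29, 0.30 and 0.23) and CHEK1 (average -0.25). After adjustment, DESeq2 and limma-voom also called 0 of the 37. The siCTGF effect on RAD51D was 0.34 under kahweol and 0.24 in untreated cells, and with RAD51L3-RFFL summed it was 0.24 under kahweol and -0.03 in untreated cells. In untreated cells, no gene was over 1.3 or under 0.7, where 9.63% and 8.99% of all genes were, and the values ran from -0.42 (FANCC) to 0.33 (RAD52). In kahweol-treated cells, FANCF was over 1.3 at 0.65 (95% counting interval 0.29 to 1.03) and no gene was under 0.7, where 14.7% and 7.83% of all genes were. The median was -0.13 in kahweol-treated and 0.06 in untreated cells, and the sign of the second depended on the scale, since it was -0.03 as log2(TPM + 1). The log2 fold change of CCN2 itself was -2.55 under kahweol and -1.32 without it (edgeR adjusted p = 0.055 for the average), and the part of this unequal knockdown in the values above was not tested.

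**Figure D4:**
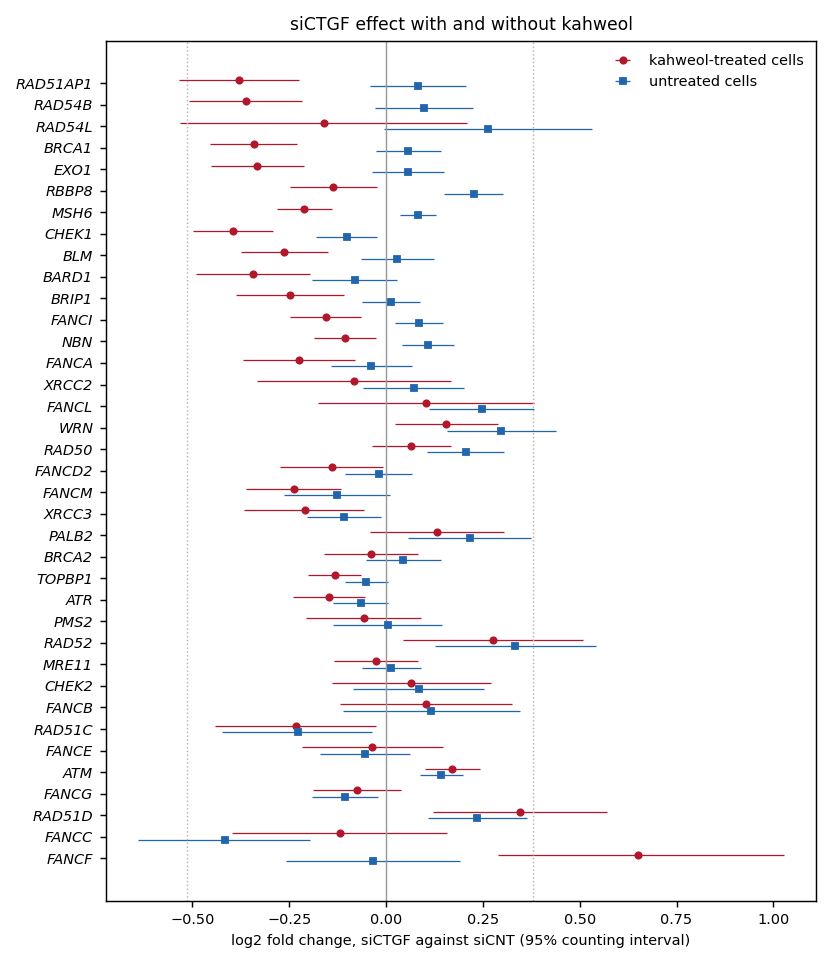
Log2 fold change of siCTGF over siCNT cells for the 37 genes, in kahweol-treated cells (red circles) and in untreated cells (blue squares), with 95% counting intervals and dotted lines at folds of 0.7 and 1.3, ordered by the difference between the pairs. All blue squares lie between -0.42 and 0.33, and FANCF in kahweol-treated cells, at 0.65, is the point past a threshold.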

How the data were processed

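RNA-Seq was made from 4 libraries of MDA-MB-231 cells, 1 per condition, so nothing measures the spread between cultures. Libraries were rRNA-depleted with a stranded kit. The labels name the RNeasy kit for extraction and the study's methods another. According to the submitters' processing notes, FastQC 0.11.7, Trimmomatic 0.38, HISAT2 2.1.0, Bowtie2 2.3.4.1 and StringTie 2.1.3b were used with GRCh37.p13; the strand setting of the counting is not given in the sources used here, so reads of genes that overlap on opposite strands may be mixed.

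The deposited estimated counts were whole numbers, not normalized. The authors' StringTie run also gave FPKM and TPM, which were equal between the deposited tables within 0.000808. The coverage signal in the deposited tables of single libraries was used only to check the counts, at 104 to 106 bases per count, so that 2 reads were taken as 1 fragment in the counting intervals (95%, Clopper-Pearson). Columns of the authors' own comparisons were not used.

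Scaling was by TMM (edgeR 4.0.16, R 4.3.3) after a filter at a mean of 10 counts, which kept 16599 genes, and a prior count of 2 entered the log2 fold changes. The only tests were edgeR's quasi-likelihood tests of the average kahweol and the average siCTGF effect over all 4 libraries, with the other factor as covariate and 1 degree of freedom left, adjusted by Benjamini-Hochberg over all genes kept (adjusted p under 0.05). Summaries and the motif search were made in Python 3.11.15 (pandas 2.3.3, numpy 2.4.6, scipy 1.17.1). Alternatives were DESeq2 1.42.0, limma-voom (limma 3.58.1), other scalings, filters, thresholds and units.

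The 37 members, the role groups and the comparison lists were chosen with earlier results of these data known. Every member was to be named. Of the other lists, up to 4 genes in each direction were eligible, with a mean count of at least 50, ranked by the smaller of the kahweol effects in the 2 siRNAs. Promoter sequences came from RefSeq (GRCh38.p14) and gene positions from the deposited files (GRCh37.p13), and no coordinate was converted.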

Additional observations from a re-analysis of the deposited data

Results flagged for a closer look

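In 5 results the counting intervals of an effect left out 0 on opposite sides in its 2 pairs of libraries. Each pair is 1 library against 1 library, so the difference was not tested.

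RAD54B was the only one of the 37 genes whose kahweol effect did so: its log2 fold change in siCTGF cells minus that in siCNT cells was -0.46 (-0.20 in siCTGF and 0.26 in siCNT cells). Summed with FSBP, which overlaps it on the same strand, both values were negative, at -0.50 in siCTGF and -0.04 in siCNT cells.

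The siCTGF effect did so in 4 genes. The difference, kahweol-treated minus untreated, was -0.36 for RBBP8 (-0.14 in kahweol-treated and 0.23 in untreated cells) and -0.29 for MSH6 (-0.21 in kahweol-treated and 0.08 in untreated cells). It was -0.24 for FANCI (-0.16 in kahweol-treated and 0.08 in untreated cells) and -0.21 for NBN (-0.11 in kahweol-treated and 0.11 in untreated cells). None of these single effects was past a fold of 1.3 or 0.7.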

How the results depend on the processing

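Scaling to the total count moved the median of all genes to -0.15 in both kahweol comparisons, and log2(TPM + 1) moved it to -0.18 in siCTGF and -0.17 in siCNT cells, so that changes under these settings are relative to those shifts. With the total count, members over a fold of 1.3 with kahweol numbered 1 in siCTGF and 2 in siCNT cells, the medians of the 37 were -0.63 in siCTGF and -0.40 in siCNT cells, 2 members were called higher, and the average effects of RAD52 (-0.031) and RAD54B (-0.11), not called, changed sign. Total count scaling also called BRCA2, RAD54L, RAD51AP1, FANCC, NBN, EXO1 and TOPBP1 lower with kahweol, which edgeR with TMM did not. With log2(TPM + 1) the medians were -0.67 in siCTGF and -0.46 in siCNT cells and 1 member was over 1.3 in siCNT cells. With log2(FPKM + 1), 2 were over 1.3 with kahweol in siCNT cells and 0 with siCTGF under kahweol. At a fold of 1.5, 1 member was over it in siCTGF and 2 in siCNT cells (19.9% and 19.0% of all genes), and 15 in siCTGF and 10 in siCNT cells were under its inverse (21.6% and 23.8% of all genes). With only TTTCGCGC and TTTGGCGC as E2F letters, 9.09% of the members' windows matched, beside 2.04% of those of all genes tested: 0 of 18 called lower and 3 of 12 not called. Those 3, EXO1, TOPBP1 and FANCC, were called lower with the total count.

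Over all tests tried, 18 to 26 members were called lower with kahweol and 2 to 4 higher. The siCTGF effect called 11 genes higher and 10 lower of all genes with edgeR, 68 and 60 with DESeq2, 32 and 28 with limma-voom, 35 and 40 with DESeq2-type size factors, 34 and 47 with the total count, 56 and 47 with a mean count of at least 100, and 0 and 0 with no covariate, but 0 members in each.

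No paired analysis was possible because each condition was 1 library and the labels give no replicate numbers. Leaving out a library was not run, since the additive fit has 1 residual degree of freedom and none would remain.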
